A study of Mus musculus with 6 samples.

Results

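Island shores are the stretches with few CpGs that border CpG islands. Here a shore was a captured autosomal region with methylation calls in all 6 samples and fewer than 4 CpGs per 100 bases. It had to lie within 2000 bases, edge to edge, of a dense region, which held at least 10 CpGs at 8 or more CpGs per 100 bases. The rule gave 12505 shores, or 7.05% of the 177443 autosomal regions with calls in all 6 samples, out of 209687 regions in the files. A further 673 regions met the rule but lacked calls in at least 1 sample. No island annotation entered the rule, so both names rest on CpG numbers and positions alone. The densest shore had 3.9916 CpGs per 100 bases and the next sparse region outside the limit had 4, while the farthest shore lay 1998 bases out and the next region beyond the limit lay 2001 bases out.

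CpG islands are clusters of CpG sites that often hold promoters and stay largely free of DNA methylation, whereas most CpGs elsewhere in mammalian genomes are methylated by the DNA methyltransferases Dnmt1, Dnmt3a and Dnmt3b. Shores lie where one state gives way to the other, and TET enzymes, which oxidise 5-methylcytosine, act along such borders. In human colon, much of the methylation that differs between tumours and normal mucosa has been described at shores.

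The samples were colon epithelial cells of C57BL/6 mice aged 18 weeks, in 3 groups with 2 samples each. One group received AOM/DSS plus curcumin, another received AOM/DSS alone, and the third was the control. AOM is azoxymethane, a colon carcinogen, DSS is dextran sulfate sodium, which causes colitis, and curcumin is a polyphenol of turmeric. In all groups the proximal colon and any tumors of the right colon were taken out before the remaining mucosa was scraped off with a glass slide, so the cells are not dissected tumor tissue. The labels do not say whether the 2 samples of a group came from separate mice, so any p-value measures the spread between these samples only. Scrapings hold several cell types, and a shift in their shares cannot be told apart from a shift in methylation within cells; marker expression to check the epithelial label was not used here.

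The values were bisulfite calls over the CpGs of each region, and the level of a region is the percentage of its calls that were methylated. Total calls per sample ran from 24682973 to 30727568. The median calls per shore lay between 110 and 135 in the 6 samples, and no shore rested on fewer than 20 calls in any sample. The shores had a median of 7 CpGs (range 3 to 19), a median length of 240 bases (range 76 to 501) and a median distance of 673 bases (range 2 to 1998) from the dense region. They lay nearest to 7407 dense regions, of which 4047 had 1 shore, 2113 had 2 and 1247 had 3 or more, with 7 as the highest number. Shores of one dense region share their neighbourhood and are not independent of each other.

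The shores were intermediate between islands and open genome in every sample. Their mean level was 29.8% and 29.6% in the AOM/DSS plus curcumin samples, 29.5% and 29.7% in the AOM/DSS samples, and 30.3% and 29.9% in the control samples. Dense regions averaged between 5.85% and 6.04% in the 6 samples, the low level that is typical of CpG islands. Sparse regions farther than 2000 bases from every dense region, 75922 in number, averaged between 49.8% and 51.5%. The mean hides a broad spread of single shores, since the median shore stood at 14.9%, the first quartile at 3% and the third quartile at 55.4% (levels averaged over the 6 samples). By that average 44% of shores lay under 10% and 4.47% lay at 90% or over, and 30 shores had no methylated call in any sample.

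Distance from the dense region ordered the levels. Averaged over the 6 samples, shores under 250 bases had a mean level of 12.4% (n = 2862), those at 250 to under 500 bases 21.1% (n = 1798), and those at 500 to under 1000 bases 31.5% (n = 3763). Shores at 1000 to under 1500 bases averaged 42.7% (n = 2421), and those at 1500 to 2000 bases averaged 46.4% (n = 1661). The climb was steep within 1000 bases and flatter beyond. Outside the limit, sparse regions at 2001 to 3000 bases averaged 48.2% in AOM/DSS plus curcumin, 47.4% in AOM/DSS and 48.6% in control (2260 regions). Those farther than 10000 bases averaged 51.1%, 50.3% and 51.7% in the same groups (64961 regions), so most of the rise in level took place inside the shores. CpG density and depth moved with distance as well, since shores in the nearest class held 3.21 CpGs per 100 bases on average and those in the farthest 2.94. The call number of the shallowest sample had a median of 130 per shore in the nearest class and 75 in the farthest, and the part of depth in the gradient was not tested.

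**Figure D1:**
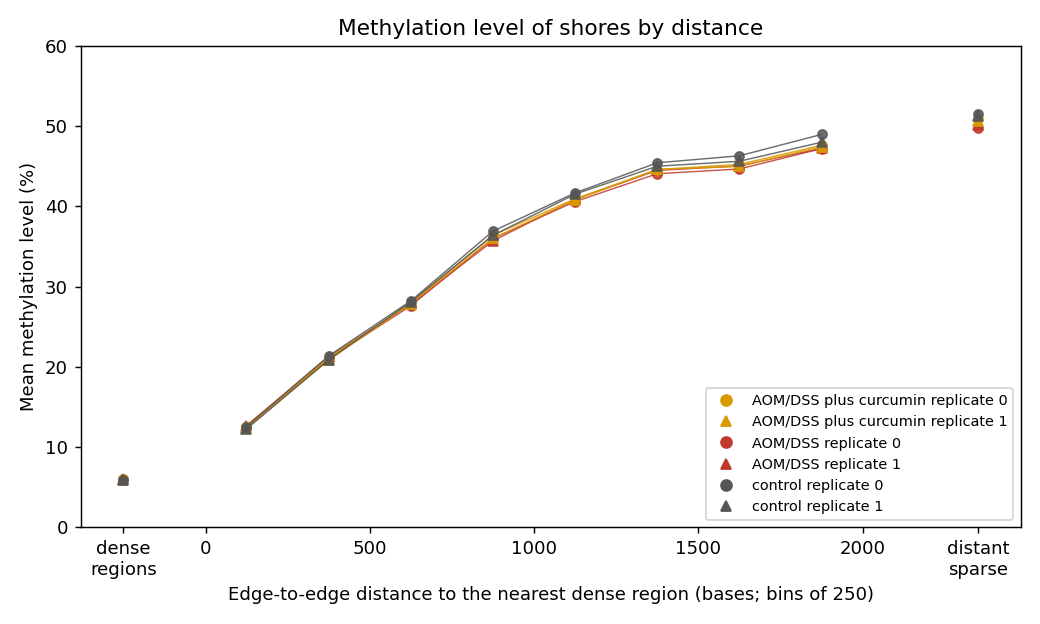
Mean methylation level (%, vertical axis) of shores in bins of 250 bases of distance from the nearest dense region (horizontal axis, bases), 1 line per sample, with the mean of dense regions at the left end and of distant sparse regions at the right end. All 6 lines climb together, with the dense regions near 6% and the distant sparse regions between 49.8% and 51.5%, and differences between groups are small against the climb.

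With distance fewer shores were nearly unmethylated and more were nearly fully methylated. Under 250 bases 69.5% of shores lay under 10%, against 22.8% at 1500 to 2000 bases. The share at 90% or over was 1.08% in the nearest class and 9.45% in the farthest. The median shore stood at 3.66% in the nearest class and at 47.6% in the farthest. At every distance some shores remained nearly free of methylation, and in the farthest class the quartiles were 11.6% and 78.9%.

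**Figure D2:**
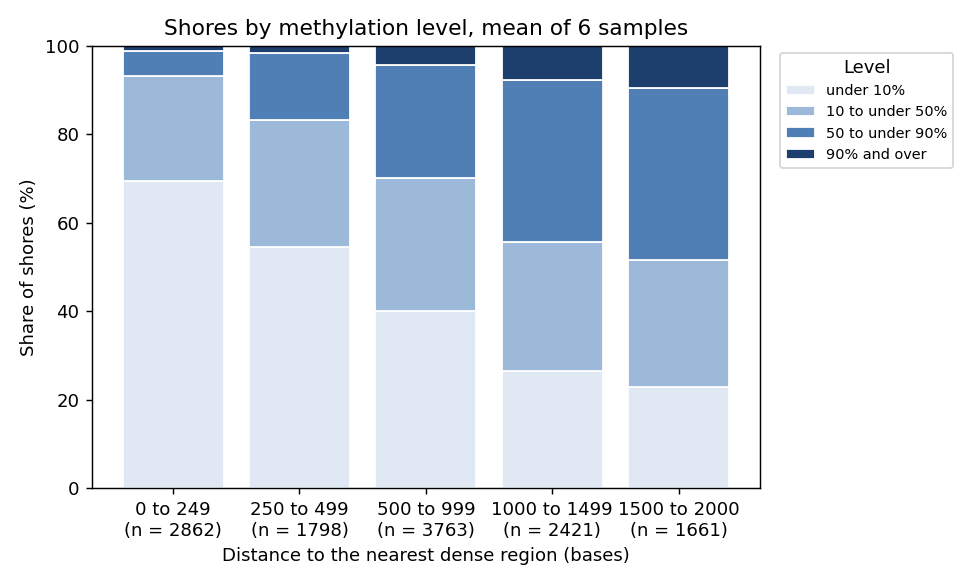
Share of shores (%, vertical axis) in 4 classes of methylation level, averaged over the 6 samples, for each distance class (horizontal axis, bases, with the number of shores). Shores under 10% make up 69.5% of the nearest class and 22.8% of the farthest, while those at 90% or over make up 1.08% and 9.45%.

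Most shores lay above their own dense region. Of 12370 shores with a dense neighbour measured in all 6 samples, 8241 (66.6%) had a higher level than it in 6 of 6 samples and 238 had a lower level in 6 of 6. The median shore stood 11.6 percentage points above its dense neighbour, and 2538 shores (20.5%) stood at least 50 points above it in 6 of 6 samples. The nearest shores on the 2 flanks of an island often differed in level. They were not matched for distance from the island, with which the level climbs, and the part of unequal distance was not tested. Among 1603 dense regions with a shore on both sides, the nearest shores of the 2 sides differed by a median of 14.9 points, and their levels were weakly related across dense regions (Pearson's r = 0.145, Spearman's rho = 0.162, given as a description over regions from the same libraries). Both flanks lay under 10% at 490 of these dense regions, both at 50% or over at 91, and at 292 one flank lay under 10% and the other at 50% or over.

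The few islands that were themselves methylated had shores of the opposite slope. Islands were sorted here by their level averaged over the 6 samples. Beside dense regions at 50% or over, the mean shore level under 250 bases was 79.1% in AOM/DSS plus curcumin, 77.5% in AOM/DSS and 77.9% in control (56 shores). At 1500 to 2000 bases it was 52.2%, 52.3% and 54.4% in the same groups (39 shores), so these shores were lower farther out. Beside dense regions under 10%, the nearest class averaged 10.03%, 10.2% and 10% (2710 shores) and the farthest 46.0%, 45.7% and 46.9% (1551 shores). The shores of methylated and unmethylated islands were thus far apart near the island and close together in the farthest class.

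Sparser shores were more methylated within each distance class. Distance inside a class was not matched between shores of different density, and its part was not tested. Across all distances, shores with 1 to under 2.5 CpGs per 100 bases averaged 38.0% in AOM/DSS plus curcumin, 37.6% in AOM/DSS and 38.4% in control, while those with 3.5 to under 4 averaged 22.7%, 22.7% and 22.9%. Under 250 bases the sparsest class averaged 17.1%, 17.2% and 17.1% and the densest 9.73%, 9.83% and 9.6%. The sparsest class lay above the densest in all 5 distance classes, with control means of 38.5% in the sparsest and 23.9% in the densest class at 500 to under 1000 bases. Both were higher in the farthest class, at 47.6%, 47.4% and 48.5% for the sparsest and 42.3%, 42.2% and 42.8% for the densest at 1500 to 2000 bases. The CpG number of the dense region went with the level near its edge. Under 250 bases, shores of dense regions with 10 to 19 CpGs averaged 17.8% in AOM/DSS plus curcumin, 17.8% in AOM/DSS and 17.6% in control. Those of dense regions with 30 CpGs or more averaged 10.8%, 11.0% and 10.8%. From 500 bases outward the order was reversed. At 1500 to 2000 bases the shores of dense regions with 10 to 19 CpGs averaged 42.2%, 42.2% and 43.1%. Those of dense regions with 30 CpGs or more averaged 46.4%, 45.9% and 47.2% there. These values are descriptions over regions of the same libraries, with no test.

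Single islands with many shores show how uneven the gradient is. Of 598 flanks with 3 or more shores, the 3 with the most are given. The dense region at chr2:58418876-58419175 (27 CpGs, build mm9) averaged 1.012% in AOM/DSS plus curcumin, 0.985% in AOM/DSS and 1.31% in control. Its shore 199 bases away averaged 17.2%, 20.8% and 12.4% in those groups, the next at 567 bases 60.7%, 72.8% and 69.6%, and that at 1624 bases 94.6%, 95.3% and 98.2%. Here nearly the whole range of methylation was crossed within 2000 bases. The dense region at chr18:78012685-78012941 (30 CpGs) had 6 shores on one side, and none of them exceeded 13.5% in any sample, out to 1955 bases. Beside the dense region at chr15:57723743-57724159 (47 CpGs) the order broke: the shore at 1728 bases averaged 35.4%, 31.9% and 33.7%, and the one at 1979 bases averaged 10.04%, 14.7% and 13.9%. Positions are those of the deposited files, which do not state whether starts count from 0 or 1, and no gene is assigned to them because the gene table at hand belongs to another build.

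The first comparison set AOM/DSS samples against control samples. The mean level over all shores was 29.6% in AOM/DSS (SD 0.126, n = 2) and 30.1% in control (SD 0.275, n = 2), a difference of -0.468 percentage points. The groups did not overlap, with AOM/DSS below control. The median of the differences of single shores was only -0.016 points, against -0.264 points over all regions tested. The exact permutation test gave p = 0.333, two-sided, which is the smallest value that 2 samples against 2 can give, so none of the averages in this report can pass a threshold of 0.05. Control replicate 0, the highest sample, carried much of the difference, which was -0.274 without it and -0.235 with calls pooled over regions. For shores under 3 CpGs per 100 bases it was -0.74; at regions with at least 100 calls in each sample it was -0.24 and the groups overlapped.

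The difference grew with distance from the nearest dense region. Under 250 bases the AOM/DSS samples averaged 12.4% and 12.7% and the control samples 12.5% and 12.2%, and the groups overlapped. At 250 to under 500 bases the AOM/DSS samples averaged 21.0% and 21.2%, between the control values of 21.3% and 20.9%. From 500 bases outward each AOM/DSS sample lay below each control sample. At 500 to under 1000 bases they averaged 31.2% and 31.2%, against 32.0% and 31.7% in control, a difference of -0.595 points. At 1000 to under 1500 bases they averaged 42.2% and 42.5%, against 43.4% and 43.1% in control, a difference of -0.903 points. At 1500 to 2000 bases they averaged 45.8% and 46.0%, against 47.5% and 46.7% in control, a difference of -1.18 points, which was -0.773 without control replicate 0. The groups of these outer 3 classes stayed apart under every alternative tried, although the size moved: the difference at 500 to under 1000 bases was -0.332 with dense regions of at least 10 CpGs per 100 bases, -0.353 with at least 100 calls and -0.336 with calls pooled over regions, and that at 1000 to under 1500 bases was -0.542 with pooled calls. The exact permutation p adjusted over the 5 classes was 0.556 at its smallest. At 8194 shores another captured region lay between the shore and its dense region. For these the differences in the outer 3 classes were -0.621, -0.851 and -1.1 points. Shores with no captured region between gave -0.418, -1.61 and -2.54 points, the last from 87 shores.

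**Figure D3:**
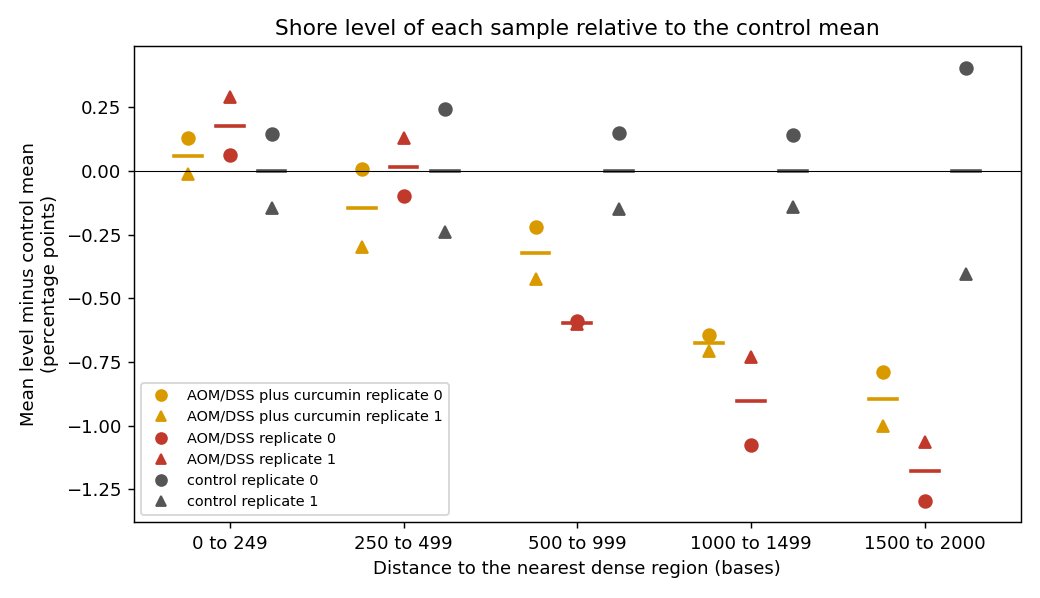
Mean shore level of each sample minus the mean of the 2 control samples (percentage points, vertical axis) in 5 distance classes (horizontal axis, bases); circles are replicate 0, triangles replicate 1 and bars the group means. The AOM/DSS bar lies at 0.176 points in the nearest class and at -1.18 points in the farthest, with the AOM/DSS plus curcumin bar between 0 and the AOM/DSS bar in the outer 3 classes.

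Expressed as one value per sample, the gradient was shallower in AOM/DSS. Beside dense regions under 10%, the mean of 3844 shores at 1000 to 2000 bases minus that of 4421 shores under 500 bases was 29.7 and 29.8 points in the AOM/DSS samples, against 30.9 and 30.8 points in the control samples. The difference was -1.13 points (exact permutation test, two-sided p = 0.333), and it ran between -1.22 and -0.817 over all alternatives, with the groups apart in each. Shores of methylated islands showed the same direction: beside dense regions at 50% or over (226 shores) AOM/DSS averaged 65.9% ± 0.444 and control 67.0% ± 0.0578 (SD, n = 2 each), and beside those at 10 to under 50% (316 shores) 49.7% ± 0.0276 and 50.8% ± 0.701. The first of these differences, -1.12 points, was -0.398 with at least 50 calls, -0.442 with at least 100 calls, and -0.45 with pooled calls, the last with overlapping groups. The second, -1.08 points, was -0.582 without control replicate 0. By chromosome the mean shore level was lower in AOM/DSS on 17 of 19 autosomes and higher on 2, with differences between -0.895 and 0.357 points. Autosomes of the same samples are not replicates, here and in the comparisons below, and an offset of 1 sample can move most of them together.

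The direction went with how methylated a shore was. Shores were sorted by their level in the AOM/DSS plus curcumin samples, the group outside the comparison. Those under 10% (5549 shores) averaged 3.87% in AOM/DSS and 3.41% in control, with samples at 3.56% and 4.19% in AOM/DSS and at 3.35% and 3.47% in control. AOM/DSS was the higher group there, but its replicate 1 stood apart, and the difference of 0.467 points was 0.152 without it and 0.781 without AOM/DSS replicate 0. In the same sample 42.1% of all shores lay under 10%, against 44% in AOM/DSS replicate 0 and between 44.2% and 44.6% in the samples of the other groups. Those at 50 to under 70% (1315 shores) averaged 58.6% in AOM/DSS and 61.0% in control, and those at 70 to under 90% (1569 shores) 78.4% and 80.6%. In both of these classes, and at 30 to under 50% and at 90% or over, the groups did not overlap and AOM/DSS was the lower one. The difference at 30 to under 50%, -1.15 points, was -0.503 without control replicate 0 and -1.79 without control replicate 1, and that at 90% or over, -1.29 points, was -0.849 without AOM/DSS replicate 1. The share of shores at 90% or over was 4.64% and 4.13% in the AOM/DSS samples, against 5.54% and 5.45% in the control samples. Within level classes, distance went with the difference in both directions. At 50 to under 70% it was -0.717 points under 250 bases (102 shores), where the groups overlapped, and -3.82 points at 1500 to 2000 bases (228 shores), where they did not. At 30 to under 50% it was -0.233 and -2.14 points in those distance classes, at 70 to under 90% it was -0.98 and -2.24 points, and at 90% or over -0.24 and -1.27 points, with -1.73 at 500 to under 1000 bases. Shores under 10% went the other way, with AOM/DSS higher by 0.264 points under 250 bases and by 0.8 points at 1500 to 2000 bases. Shores at 10 to under 30% had no such order, with differences of 0.346, 0.17, -0.226, 0.513 and 0.684 points from the nearest class to the farthest.

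Sparse regions far from any island differed by slightly more at equal level, in the same direction except at 10 to under 30%, where they differed by -0.0907 points and shores by 0.204 points, with overlapping groups for both. Under 10% the groups of distant sparse regions overlapped too, and their difference of 0.782 points was 0.106 without AOM/DSS replicate 1. At 50 to under 70% distant sparse regions averaged 59.0% in AOM/DSS and 61.9% in control, a difference of -2.95 points, against -2.32 points for shores. Averaged over 4 level classes between 10% and 90%, the level of shores minus that of distant sparse regions was -0.265 and -0.721 points in the AOM/DSS samples and -0.778 and -1.16 points in the control samples. This gap was smaller in AOM/DSS, with a difference of 0.474 points and the groups apart (exact permutation test, two-sided p = 0.333). The value was 0.246 without AOM/DSS replicate 0 and 0.285 without control replicate 1, and the groups overlapped when shores reached out to 4000 bases (0.353).

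**Figure D4:**
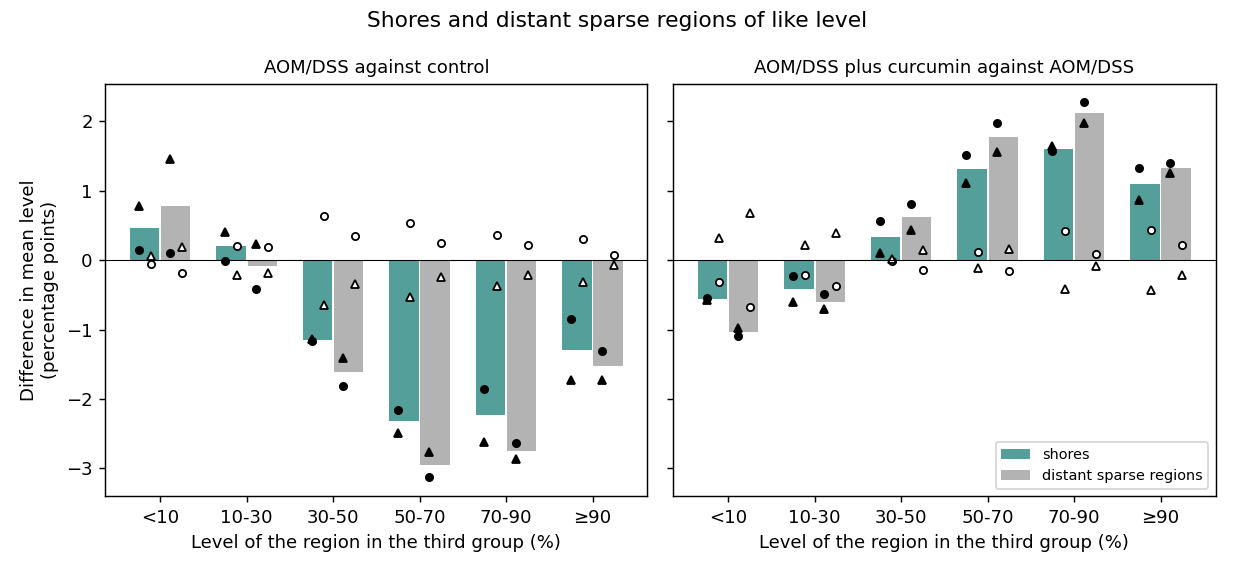
Difference in mean level (percentage points, vertical axis) between AOM/DSS and control (left panel) and between AOM/DSS plus curcumin and AOM/DSS (right panel), for shores and distant sparse regions in 6 classes of level set by the third group (horizontal axis, %). Bars are differences of group means, and filled and open symbols are the samples of the first and second group minus the second group's mean; at 50 to under 70% the left bars reach -2.32 for shores and -2.95 for distant sparse regions.

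No single shore passed the test of AOM/DSS against control. A call needed an adjusted p under 0.05 from edgeR's quasi-likelihood test, with Benjamini-Hochberg adjustment over 179922 regions, and group means at least 10 points apart. It was met by 0 of 12505 shores, against 0.00389% of all regions tested, and limma also gave 0. At an unadjusted p under 0.05, with no minimum difference, 724 shores stood out (5.79%), against 6.34% of all regions. Of these, 394 were higher in AOM/DSS (background 2.73% of all regions) and 330 were lower (background 3.62%), so among shores the higher ones were more numerous. With the minimum of 10 points added, the balance turned: 83 shores were higher in AOM/DSS (0.664%, background 0.723%) and 186 were lower (1.49%, background 2.1%). Among distant sparse regions the shares were 0.728% higher and 2.68% lower. By this rule the lower ones became more frequent outward, with 11 (0.384%) under 250 bases and 43 (2.59%) at 1500 to 2000 bases. The higher ones numbered 12 (0.419%) and 13 (0.783%) in those classes. A shore under 10% in control cannot be lower by 10 points. Shores under 10% (mean of the 6 samples) made up 69.5% and 22.8% of those classes, so the rise of the lower ones is in part built in. Without the minimum, the lower ones made up 1.96% and 3.79%, and the higher ones 3.46% and 2.59%.

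The shores with the smallest unadjusted p among those at least 10 points apart with groups that did not overlap are named as examples, and none of them passed in this test. The shore at chr2:152655428-152655803 (12 CpGs, 1625 bases from its dense region) had levels of 32.6% and 28.9% in AOM/DSS and 10.8% and 6.47% in control, with 21.9% and 13.4% in AOM/DSS plus curcumin (edgeR adjusted p = 0.105). Its dense region was low in both groups, with means of 1.15% in AOM/DSS and 0.966% in control. The shore at chr14:4286773-4286888 (4 CpGs, 912 bases) had 34.8% and 40.1% in AOM/DSS and 15.0% and 16.0% in control (edgeR adjusted p = 0.156). Its AOM/DSS plus curcumin samples stood far apart, at 15.3% and 33.1%. This shore was unusually deep, with 576 to 830 calls per sample over its 4 CpGs. The median per shore was 110 to 135 calls, and the reason for the excess was not tested. The shore at chr13:108677528-108677665 (3 CpGs, 1869 bases) had 43.3% and 44.9% in AOM/DSS and 16.0% and 21.5% in control, a difference of 25.4 points. The other 2 of the higher shores, at chr10:126417730-126418224 and chr7:54049371-54049561, differed by 12.01 and 10.01 points; the second differed by 6.62 points without AOM/DSS replicate 1.

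Among shores lower in AOM/DSS, the one at chr2:73365621-73365971 (8 CpGs, 1502 bases) had 82.2% and 82.3% in AOM/DSS and 95.7% and 95.1% in control, with 91.5% and 87.7% in AOM/DSS plus curcumin (edgeR adjusted p = 0.108). This shore was nearly fully methylated in control. The shore at chr3:57378133-57378389 (6 CpGs, 402 bases) had 79.05% and 82.4% in AOM/DSS and 94.5% and 94.7% in control. At chr17:35135888-35136215 (10 CpGs, 1485 bases) the levels were 24.9% and 14.4% in AOM/DSS and 33.6% and 52.8% in control, so the 2 controls themselves differed by more than the groups' nearest samples, and the difference of -23.5 points was -13.9 without control replicate 1. The remaining 2, at chr9:95744449-95744708 and chr15:88695108-88695350, differed by -14.9 and -16.2 points; the second was -9.55 without control replicate 1. The dense regions beside these 10 shores were low, with group means of at most 6.87%. Where none is given above, the edgeR adjusted p of these named shores ran from 0.34 to 0.598.

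**Figure D5:**
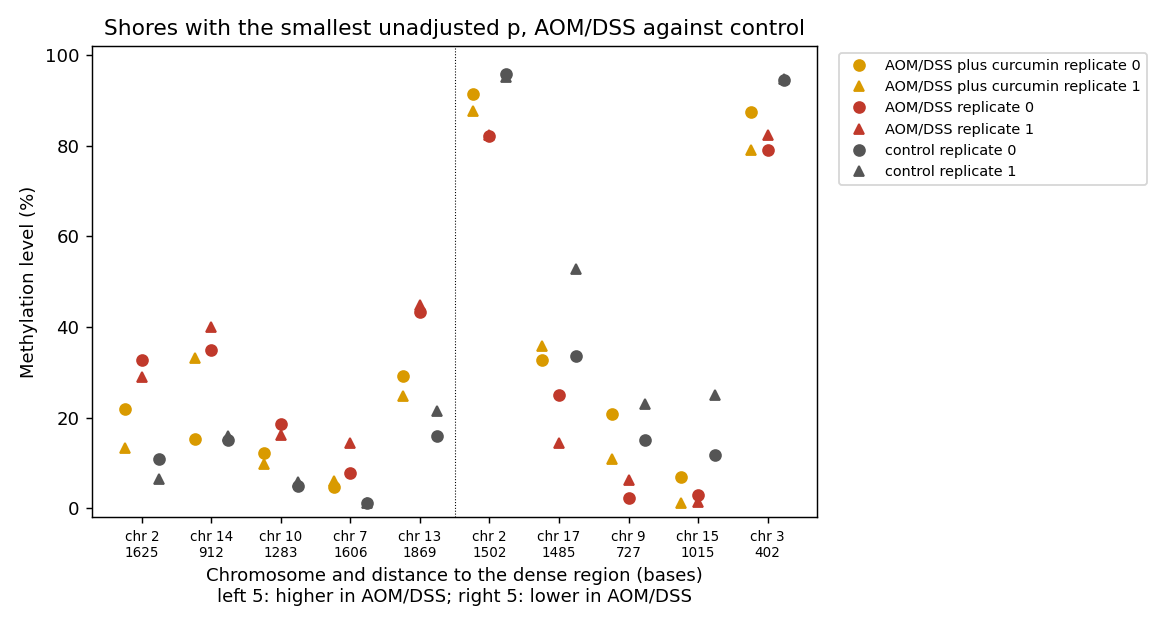
Methylation level (%, vertical axis) in each of the 6 samples for the 10 named shores of the comparison of AOM/DSS with control, labelled by chromosome and distance from the dense region in bases. On the left are the 5 shores that were higher in AOM/DSS, up to 44.9%, and on the right the 5 that were lower. The mean of AOM/DSS plus curcumin lies between those of AOM/DSS and control at all 10. At chr 2 and 1625 bases the AOM/DSS plus curcumin samples stand at 21.9% and 13.4%. The shores were picked for a wide gap between AOM/DSS and control, so the middle position of the remaining group is in part built in. How much of that position goes beyond this choice was not tested.

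The shore with the smallest adjusted p of all lay outside the naming rule, because its difference was under 10 points, and was chosen after its values were seen. It lies at chr10:41169589-41169949 (14 CpGs), 49 bases from its dense region. AOM/DSS had 0 methylated calls of 234 and of 262, which allows levels of up to 1.28% and 1.15%. The control samples had 5.37% and 7.27%, and the AOM/DSS plus curcumin samples had 7.76% and 3.33%. The edgeR adjusted p was 0.0616 for AOM/DSS against control, 0.897 without AOM/DSS replicate 1, and 0.302 for AOM/DSS plus curcumin against AOM/DSS.

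The second comparison set AOM/DSS plus curcumin against AOM/DSS, the question being what curcumin did on that background. The mean over all shores was 29.7% ± 0.126 in AOM/DSS plus curcumin and 29.6% ± 0.126 in AOM/DSS (SD, n = 2 each). The groups overlapped, with a difference of 0.114 points (exact permutation test, two-sided p = 0.667). The median of the differences of single shores had the opposite sign, at -0.0916 points, against 0.111 points over all regions tested. Leaving out single samples moved the difference of means between 0.0249 (without AOM/DSS replicate 0) and 0.203 (without AOM/DSS replicate 1 or without AOM/DSS plus curcumin replicate 1, when the groups no longer overlapped), and 0.0252 remained without AOM/DSS plus curcumin replicate 0. This comparison uses the same AOM/DSS samples as the one with control, so opposite signs in the 2 are in part built in.

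By distance, the AOM/DSS plus curcumin samples lay above AOM/DSS in the outer classes by at most 0.285 points. At 500 to under 1000 bases they averaged 31.6% and 31.4%, against 31.2% and 31.2% in AOM/DSS. At 1500 to 2000 bases they averaged 46.3% and 46.1%, against 45.8% and 46.0% in AOM/DSS. These differences of 0.274 and 0.285 points, and that of 0.227 at 1000 to under 1500 bases, had groups that did not overlap, but with calls pooled over regions they were 0.0934, -0.102 and -0.125. The gradient beside dense regions under 10% was 29.94 and 29.99 points in AOM/DSS plus curcumin, against 29.5 and 29.6 points in AOM/DSS, a difference of 0.393 that was 0.054 with pooled calls. Leaving out AOM/DSS replicate 0 left 0.0558 at 1000 to under 1500 bases and 0.17 at 1500 to 2000 bases, and leaving out AOM/DSS plus curcumin replicate 0 left 0.171 at 500 to under 1000 bases and 0.179 at 1500 to 2000 bases. On the autosomes the mean shore level was higher in AOM/DSS plus curcumin on 12 and lower on 7.

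Sorted by level in the control samples, the outside group here, shores at 50 to under 70% averaged 58.8% in AOM/DSS plus curcumin and 57.5% in AOM/DSS, and those at 70 to under 90% averaged 79.2% and 77.6%. Shores under 10% averaged 3.31% in AOM/DSS plus curcumin and 3.87% in AOM/DSS. The difference of -0.561 points was -0.245 without AOM/DSS replicate 1 and -0.877 without AOM/DSS replicate 0. The groups did not overlap in any of these 3 classes, with the higher group depending on the class. The differences for distant sparse regions were 1.77, 2.12 and -1.04 points in the same classes, against 1.31, 1.6 and -0.561 points for shores; the value of -1.04 was -0.361 without AOM/DSS replicate 1 and -1.71 without AOM/DSS replicate 0. Averaged over the 4 middle classes, the gap of shores to distant sparse regions was -0.712 and -0.676 points in AOM/DSS plus curcumin, and -0.196 and -0.648 points in AOM/DSS. That difference of -0.272 points (exact permutation test, two-sided p = 0.333) was -0.0459 without AOM/DSS replicate 0 and -0.498 without AOM/DSS replicate 1.

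By edgeR's quasi-likelihood test 0 shores were called, against 0% of all regions, limma gave 0, and 599 shores (4.79%, all regions 5.25%) had an unadjusted p under 0.05. Of these, 226 were higher in AOM/DSS plus curcumin (background 2.56% of all regions) and 373 were lower (background 2.69%). With at least 10 points, 92 shores were higher in AOM/DSS plus curcumin (0.736%, background 1.29%) and 93 were lower (0.744%, background 0.706%). The shore at chr4:126914653-126914770 (3 CpGs, 976 bases) had 77.4% and 73.2% in AOM/DSS plus curcumin and 31.4% and 45.8% in AOM/DSS, with 77.8% and 48.7% in control. That at chr15:89012225-89012316 (3 CpGs, 644 bases) had 95.2% and 90.7% in AOM/DSS plus curcumin and 62.8% and 68.6% in AOM/DSS, with 86.7% and 80.0% in control. Both rested on few calls, 48 or fewer in every sample. That at chr8:90976745-90976864 (3 CpGs, 1417 bases) had 94.7% and 97.6% in AOM/DSS plus curcumin, against 79.6% and 71.7% in AOM/DSS and 77.05% and 84.8% in control, and it was among the named shores of the comparison with control as well. The shore at chr8:48372619-48373019 (16 CpGs, 119 bases) had 86.2% and 84.9% in AOM/DSS plus curcumin and 67.0% and 77.9% in AOM/DSS, and the difference of 13.1 points was 7.68 without AOM/DSS replicate 0. The fifth, at chr9:44186537-44186678, differed by 25.5 points, and by 16.1 without AOM/DSS plus curcumin replicate 1.

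Of the 5 shores named as lower in AOM/DSS plus curcumin, 3 differed by clearly less without AOM/DSS replicate 1. At chr16:21997139-21997246 the AOM/DSS plus curcumin samples had no methylated call, which allows up to 2.86% and 3.3%, and the AOM/DSS samples had 2.22% and 18.8%, so that -2.22 points remained without AOM/DSS replicate 1. At chr1:172106170-172106299 the levels were 1.75% and 1.64% in AOM/DSS plus curcumin and 2.46% and 21.8% in AOM/DSS, and -0.762 points remained without AOM/DSS replicate 1. At chr2:157251403-157251556 they were 0% (up to 5.66% allowed) and 2.44% in AOM/DSS plus curcumin and 7.69% and 18.6% in AOM/DSS, and -6.47 of -11.9 points remained. The shore at chr4:129013551-129013884 (12 CpGs, 901 bases) was even within groups, with 7.83% and 6.71% in AOM/DSS plus curcumin and 19.5% and 15.7% in AOM/DSS, and its control samples had 16.3% and 28.4%. At chr11:60747405-60747482 (3 CpGs, 1380 bases) the AOM/DSS plus curcumin samples had no methylated call (up to 3.41% and 3.8% allowed) and the AOM/DSS samples had 10.7% and 10.8%, while the control samples split into 0% (up to 3.57% allowed) and 12.8%. The dense regions beside the 10 named shores had group means of at most 2.87%, apart from that of the shore at chr8:48372619-48373019, which averaged 26.1% in AOM/DSS plus curcumin, 27.1% in AOM/DSS and 22.3% in control. None of the shores passed, the smallest edgeR adjusted p among the 10 named being 0.72.

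The third comparison set AOM/DSS plus curcumin against control. The mean over all shores was 29.7% ± 0.126 in AOM/DSS plus curcumin and 30.1% ± 0.275 in control (SD, n = 2 each), a difference of -0.354 points (median over single shores -0.161, over all regions -0.168) with groups that did not overlap (exact permutation test, two-sided p = 0.333). It was -0.16 without control replicate 0 and -0.548 without control replicate 1. The same control samples served the first comparison, so like directions in the 2, also by distance and by autosome, are in part built in. As in AOM/DSS, the distance from control was larger farther out: -0.322 points at 500 to under 1000 bases, -0.676 at 1000 to under 1500 bases and -0.894 at 1500 to 2000 bases, with the groups apart in each. Without control replicate 0 the first of these was -0.171 and the last -0.488. The gradient was 30.1 and 30.1 points in AOM/DSS plus curcumin, against 30.9 and 30.7 points in control, a difference of -0.741. On 17 of 19 autosomes the mean shore level was lower in AOM/DSS plus curcumin. At 50 to under 70%, sorted by the AOM/DSS samples, shores averaged 61.1% in AOM/DSS plus curcumin and 62.0% in control, a difference of -0.873 points that was -0.409 without control replicate 0 and -1.34 without control replicate 1. The gap between shores and distant sparse regions differed by 0.216 points between these groups, which overlapped; it was -0.00311 without control replicate 1 and 0.436 without control replicate 0.

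The test by shore again called 0 with edgeR, against 0% of all regions, and 0 with limma, while 441 shores (3.53%, all regions 4.17%) had an unadjusted p under 0.05. Of these, 204 were higher in AOM/DSS plus curcumin (background 1.83% of all regions) and 237 were lower (background 2.34%). With at least 10 points, 53 shores were higher in AOM/DSS plus curcumin (0.424%, background 0.562%) and 75 were lower (0.6%, background 0.899%). The shore at chr9:111342316-111342535 (7 CpGs, 584 bases) had 80.5% and 78.5% in AOM/DSS plus curcumin and 55.1% and 50% in control, with 59.3% and 65.0% in AOM/DSS. The shore at chr2:38861414-38861750 (12 CpGs, 504 bases) had 7.97% and 9.84% in AOM/DSS plus curcumin and 22.9% and 22.1% in control, with 12.9% and 8.37% in AOM/DSS. At chr8:73326829-73327062 (7 CpGs, 1650 bases) both AOM/DSS plus curcumin samples stood at 10.7%, against 20.8% and 22.1% in AOM/DSS and 21.8% and 28.9% in control. Higher in AOM/DSS plus curcumin were also the shores at chr5:144385439-144385526, chr16:13436564-13436926 and chr8:107820145-107820284, by 12.7, 10.1 and 33.7 points. The last differed by 20.5 points without control replicate 1, and it rested on few calls, from 22 in control replicate 1 to 55 in control replicate 0. The shore at chr8:90976745-90976864 already named was higher by 15.3 points. Lower were also those at chr13:120276412-120276557, by -18.7 points, and at chr5:122042198-122042316, by -29.3 points, which was -15.8 without control replicate 0. The already named shore at chr4:129013551-129013884, which had the smallest p of the lower ones, differed by -15.04 points, and by -9.003 without control replicate 1. The edgeR adjusted p of all 10 shores named in this comparison was 1, and the dense regions beside them had group means of at most 10.5%.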

How the data were processed

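Libraries for bisulfite sequencing were captured, per the labels' protocols, with a kit of Agilent (SureSelectXT Mouse Methyl-Seq). The submitters' processing notes name Bismark 0.15.0, ChIPseeker 1.10.3, R 3.4.0 and build mm9; no source used here gives their settings. The authors deposited counts: for each region its CpGs, its methylation calls and its methylated calls, with no value below 20 calls.

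From these counts the level of each region was computed as methylated calls in percent of calls, and averages give every shore equal weight. Calls of one read are not independent and carry no molecular identifiers, so the limits given for counts of 0 (3 counts) cover counting error only. Single regions were tested with edgeR 4.0.16 in R 4.3.3 (quasi-likelihood test, unmethylated and methylated counts, all 6 samples, 179922 regions, Benjamini-Hochberg adjustment), with limma 3.58.1 as an alternative, and the fits were tested on simulated data. Averages were computed in Python 3.11.15 with pandas 2.3.3 and compared by exact two-sided permutation over samples. Level classes in the comparisons between groups were set by the group outside each comparison. Those in the descriptions by distance used the mean of all 6 samples.

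The rule for named shores takes, per comparison and direction, the called ones or otherwise up to 5 with the smallest unadjusted p among those at least 10 points apart with groups that do not overlap, 1 per dense region. For gradients it takes the 3 flanks with the most shores. The shores, classes and rules were chosen with earlier results of these data known. Alternatives covered call minimums of 50 and 100, other densities and distances, pooled calls, 1 value per dense region, the replicate block and leaving out each sample. No sequence is printed, because no genome of build mm9 was used here.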

Additional observations from a re-analysis of the deposited data

How the results depend on the processing

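Each average counts as apart where all samples of one group lie beyond all samples of the other. With AOM/DSS against control, the outer 3 distance classes and the gradient kept their direction and stayed apart under every alternative. In that comparison the mean over all shores overlapped with at least 100 calls (-0.24) and within 1000 bases (-0.201), the class under 250 bases came apart with at least 100 calls (0.151) and with pooled calls (0.118), the shores of dense regions at 50% or over overlapped with pooled calls (-0.45), and the gap to distant sparse regions overlapped at 4000 bases (0.353).

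With AOM/DSS plus curcumin against AOM/DSS, the mean over all shores came apart for shores under 3 CpGs per 100 bases (0.334) and at 4000 bases (0.278). The classes at 500 to under 1000, 1000 to under 1500 and 1500 to 2000 bases gave 0.0113, 0.26 and 0.147 with dense regions of at least 10 CpGs per 100 bases, all overlapping. With at least 50 calls the first 2 of them gave 0.141 and 0.0148, with at least 100 calls the last 2 gave -0.0177 and 0.194, and with pooled calls the 3 gave 0.0934, -0.125 and -0.102. The class at 250 to under 500 bases came apart with pooled calls (-0.236), and that under 250 bases did so for shores under 3 CpGs per 100 bases (-0.0786), as did shores of dense regions under 10% (0.285). Shores of dense regions at 50% or over gave -0.0358 with dense regions of at least 10 per 100 bases, 0.296 and 0.184 with at least 50 and 100 calls and 0.332 with pooled calls. The gradient overlapped with pooled calls (0.054). The gap to distant sparse regions overlapped with dense regions of at least 6 (-0.211), shores under 3 (-0.24), at least 100 calls (-0.222), 1000 bases (-0.219) and 4000 bases (-0.106).

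With AOM/DSS plus curcumin against control, the mean over all shores overlapped with dense regions of at least 6 (-0.354), at least 100 calls (-0.255) and within 1000 bases (-0.154). The class at 500 to under 1000 bases overlapped with at least 50 (-0.299) and 100 calls (-0.183). Shores of dense regions at 50% or over gave -0.458 and -0.828 with dense regions of at least 6 and 10 per 100 bases, 0.206 for shores under 3, -0.027 and -0.2 with at least 50 and 100 calls, and -0.0501 with pooled calls. The gap to distant sparse regions came apart for shores under 3 (0.284), with pooled calls (0.253) and within 1000 bases (0.523). The cause of none of these shifts was tested.

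Leaving out 1 sample at a time, AOM/DSS minus control ran from 0.0307 to 0.321 under 250 bases and from -0.225 to 0.257 at 250 to under 500 bases. AOM/DSS plus curcumin minus AOM/DSS ran from 0.0249 to 0.203 over all shores, from -0.231 to -0.00487 under 250 bases, from -0.313 to -0.00767 at 250 to under 500 bases, from -0.0202 to 0.181 beside dense regions under 10%, and from -0.498 to -0.0459 for the gap. AOM/DSS plus curcumin minus control ran from -0.087 to 0.203 under 250 bases, from -0.386 to 0.0974 at 250 to under 500 bases, from -0.329 to 0.367 and from -0.698 to -0.183 beside dense regions at 10 to under 50% and at 50% or over, and from -0.00311 to 0.436 for the gap.

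The replicate numbers gave no clear sign of pairing: deviations of same-numbered samples correlated at 0.0149 to 0.0757 over shores, with 2 pairs only. The labels do not say whether the numbers mark a shared batch, and these correlations cannot decide it. With the replicate block in edgeR, 3 shores were called in AOM/DSS against control (0.024%, against 0.0228% of all regions), at chr2:152655428-152655803, chr14:4286773-4286888 and chr2:73365621-73365971 (edgeR adjusted p 0.0129, 0.0151 and 0.0258; over their other alternatives up to 0.757, 0.92 and 0.897), and 0 in the other comparisons. The shore at chr10:41169589-41169949, under 10 points apart, had an edgeR adjusted p of 0.00912 with the block and of up to 0.897, without AOM/DSS replicate 1, over its alternatives. The called shore at chr14:4286773-4286888 is the unusually deep one, with 576 to 830 calls per sample. In averages the block leaves every difference as it is and allows no exact p below 0.5. Fits without a sample assume that the lone sample left in its group varies like the other groups. Leaving out samples within level classes was added after seeing the data. Samples of one group differed by 4.21 to 4.62 points at an average shore.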

Other observations

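The X chromosome lies outside the rule, and 107 of its regions meet it otherwise. Their mean level was 29.6% and 29.8% in the AOM/DSS plus curcumin samples, 29.6% and 28.9% in the AOM/DSS samples, and 30.3% and 29.04% in the control samples. The gradient was there too: under 500 bases (40 regions) the groups averaged 12.3%, 12.4% and 11.9% in that order, and at 1000 to 2000 bases (39 regions) 45.7%, 45.1% and 46.5%. The 191 dense regions of the X chromosome averaged 8.89%, 8.95% and 8.65%.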
